A study of Mus musculus with 9 samples.

Results

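The transcripts of 9 transcription factors of the oocyte, Figla, Nobox, Lhx8, Sohlh1, Sohlh2, Taf4b, Tbpl2, Pou5f1 and Sall4, were followed in mouse ovaries on postnatal day (PD) 14, 15 and 16. The genes were chosen by name, and each symbol matched 1 of the 52025 genes in the deposited tables. All 9 passed the filter on low values, which asked for a mean FPKM over 1 in 1 or more of the days and kept 15495 genes. FPKM is the number of sequenced fragments of a gene scaled by its exon length and by the depth of the library, so levels can be compared between genes.

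The study sequenced RNA from untreated juvenile ovaries of the Kunming strain, 3 libraries for each of PD14, PD15 and PD16, to follow the initial formation of the follicular antrum. The labels name no transgene, deletion or agent in any group, and the groups are told apart by age. The study describes the sequenced ovaries as biologically independent, and the labels give no animal for a library, so p-values measure the spread between these libraries. The labels name ovary as the tissue but granulosa cells as the source, whereas the study's methods describe ovaries.

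These factors are known from the germ cells of the ovary, where they help to set up the growing oocyte and its gene products. FIGLA, SOHLH1 and SOHLH2 are basic helix-loop-helix (bHLH) proteins, which bind E-box elements as dimers. NOBOX and LHX8 are homeobox proteins, and mice that lack either of them lose their oocytes soon after birth. TAF4B and TBPL2 replace general factors of the core promoter machinery, and POU5F1 and SALL4 are shared with pluripotent cells and with the early germ line. Growing oocytes use these factors to make the zona pellucida, growth factors for the granulosa cells and products stored for the embryo.

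The sequences just upstream of 2 members and of 1 known target are shown because bHLH factors read the E-box, whose letters are CANNTG. They come from RefSeq on GRCm38.p6, they cover the 250 bases before the annotated start, and they run 5′ to 3′ on the strand of the gene, with capitals for every CANNTG. Such windows were found for 7 of the 9 members. CANNTG reads alike on both strands, and its matches include those of the palindrome CACGTG. The windows lie at chr2:25847249-25847498 on the minus strand for Sohlh1, at chr6:43309555-43309804 on the minus strand for Nobox and at chr5:135979855-135980104 on the plus strand for Zp3.
Sohlh1: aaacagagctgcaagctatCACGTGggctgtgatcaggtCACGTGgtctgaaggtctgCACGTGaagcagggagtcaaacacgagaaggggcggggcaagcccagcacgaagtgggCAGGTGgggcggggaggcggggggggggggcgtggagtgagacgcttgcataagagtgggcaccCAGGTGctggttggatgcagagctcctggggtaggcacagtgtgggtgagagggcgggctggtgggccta
Nobox: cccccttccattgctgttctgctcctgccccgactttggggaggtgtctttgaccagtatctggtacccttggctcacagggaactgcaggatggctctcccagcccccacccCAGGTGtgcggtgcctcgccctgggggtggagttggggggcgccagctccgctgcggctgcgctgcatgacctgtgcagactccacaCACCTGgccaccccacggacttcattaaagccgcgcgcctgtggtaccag
Zp3: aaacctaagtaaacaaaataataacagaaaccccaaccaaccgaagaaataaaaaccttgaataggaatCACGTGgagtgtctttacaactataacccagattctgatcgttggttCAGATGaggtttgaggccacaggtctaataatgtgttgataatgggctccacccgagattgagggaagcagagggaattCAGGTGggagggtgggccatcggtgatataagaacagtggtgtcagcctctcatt
The Sohlh1 window held 5 matches, and 3 of these were CACGTG, which began 231, 211 and 192 bases before the start. Of 32851 windows of this length, 1.15% held at least 5 CANNTG and 0.0609% at least 3 CACGTG. The Nobox window held 2 matches, and 31.8% of the windows held at least 2. In Zp3, which encodes a zona pellucida protein and is a classical target of FIGLA, there were 3 matches, a number reached by 12.2% of the windows. One of them was CACGTG, 181 bases before the start, a palindrome found in 6.02% of the windows. Among the members not shown, the windows of Tbpl2 held 4, of Figla 2, of Sohlh2 1 and of Lhx8 0 matches, and the pair of windows of Pou5f1 held 1 and 2. The 5 matches of Sohlh1 were thus the most in any member's window. The same windows were also searched for TAATTG (NOBOX), TGATTG (LHX8), ATGCAAAT and TATAAA, and each held 0 matches of these. A match of these letters is a description of the window and does not show that a factor binds there.

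Every library held RNA of the oocyte as well as of somatic cells. Depth ran from 20.4 to 28.7 M fragments with a median of 24.2 M, as read from the step of a single fragment in the low FPKM. The 14 oocyte markers summed to 1568 to 1929 FPKM on PD14, 2027 to 2124 on PD15 and 1453 to 1586 on PD16, and the least abundant of them, Dazl, had at least 9.69 FPKM. Markers of granulosa cells summed to 2763 to 3415 FPKM on PD14, 2563 to 2968 on PD15 and 2730 to 3213 on PD16. Of these 10 markers, 3 were higher and 7 lower on PD16 than on PD14. Amh was called higher by limma, where 2.36% of all genes were. Kitl and Cyp19a1 were called lower, where 1.89% of all genes were. Cyp19a1 had a mean of 5.11 FPKM on PD14 and 2.37 on PD16. The study reported the other direction for Cyp19a1, an increase on PD15 and PD16 by quantitative RT-PCR. Over all libraries, markers of theca and interstitial cells summed to 1192 to 2242 FPKM and of stroma to 388 to 502. The libraries therefore hold more cell types than the source label names, and they are described as ovaries. Of 5 male germ line genes, Stra8 was listed at 0 in all libraries, Acrv1 reached at most 0.0382 FPKM, Prm2 0.411 and Prm1 1.15. The remaining one, Sycp3, a meiotic gene also made by female germ cells, ran from 6.06 to 12.9 FPKM. Epithelial markers summed to 52.2 to 59.0 FPKM on PD14, 46.2 to 51.6 on PD15 and 39.4 to 43.8 on PD16. Of the 4 tested, Krt8, Krt18 and Krt19 were called lower from PD14 to PD16, where 1.89% of all genes were. Upk3b was not called, with a log2 change of 0.05. Endothelial markers summed to 52.5 to 55.5, 49.2 to 51.6 and 46.7 to 49.3 FPKM on the 3 days, with 0 of 4 called by limma and 2 at an unadjusted p under 0.05 from PD14 to PD16, against 22.8% of all genes. Blood cell markers summed to 102 to 133, 45.8 to 61.8 and 60.3 to 112 FPKM. Of the 4 tested, Hba-a1 was called lower on PD15 than on PD14, where 0.342% of all genes were. The part of these somatic markers in the results was not tested. In such bulk RNA, fewer oocytes and less RNA per oocyte cannot be told apart.

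Between these days a single member rose over PD14 and a single member fell after PD15. Taf4b was 2.04-fold higher on PD16 than on PD14, and Pou5f1 was 28.5% lower on PD16 than on PD15. The Pou5f1 call held in 1 of 9 fits that left out a library and not relative to the oocyte markers, all 14 of which were also lower on PD16 than on PD15. The other 7 members passed the test in no comparison, although all of them had a lower mean on PD16 than on PD14, also relative to oocyte markers. The plot of FPKM by library shows these levels.

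**Figure D1:**
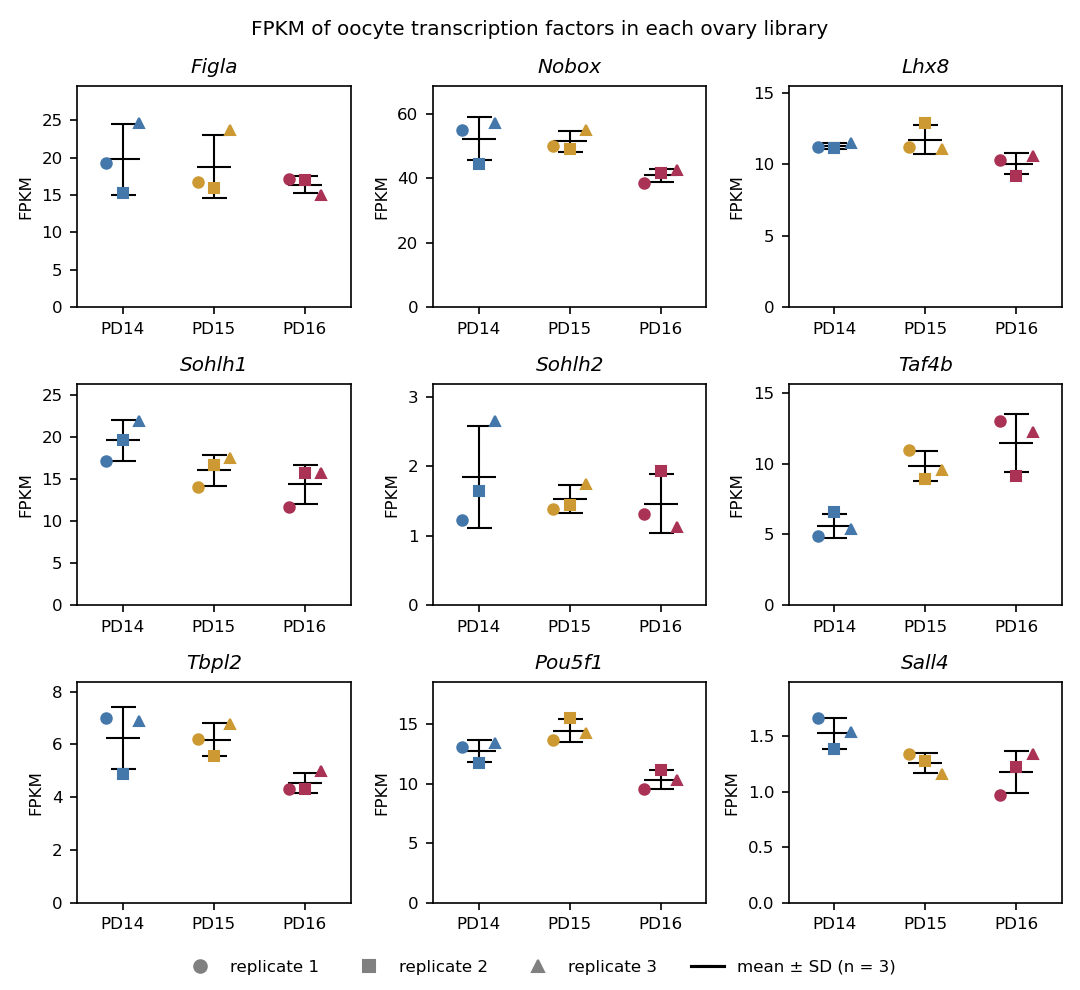
FPKM (vertical axes, from 0) of the 9 genes in each library by postnatal day, with replicate 1 as circles, replicate 2 as squares, replicate 3 as triangles, and bars for the mean ± SD of 3 libraries. All PD15 and PD16 values of Taf4b, 8.90 to 13.0 FPKM, lie above its PD14 values of 4.90 to 6.56, whereas the PD16 values of Pou5f1, 9.54 to 11.2, lie below those of the other days.

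The members covered a wide range of levels. Nobox was the most abundant, with a mean of 48.2 FPKM over the 9 libraries, higher than 93.2% of the genes tested. It was followed by Figla at 18.3, Sohlh1 at 16.7, Pou5f1 at 12.5, Lhx8 at 11.0, Taf4b at 8.96 and Tbpl2 at 5.66 FPKM. Sohlh2 at 1.61 and Sall4 at 1.32 FPKM stood near the low end, at the percentiles 14.6 and 10.3 of all genes tested. On PD14 the values of Figla and Sohlh1 overlapped, as did those of Taf4b and Tbpl2 and those of Sohlh2 and Sall4, so these neighbours did not differ beyond their spread. Taf4b stood the seventh in this order on PD14 and the fourth on PD16, when its values overlapped with those of Sohlh1, Pou5f1 and Lhx8.

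Figla, which encodes a bHLH factor required for primordial follicles and the zona pellucida, lies at chr6:86016171-86020996 (ENSMUSG00000030001, mm10, plus strand, 4 exon blocks in GENCODE M21, where an exon block is a stretch of exon merged over the transcripts). Its FPKM were 19.3, 15.3 and 24.7 on PD14, 16.7, 16.0 and 23.6 on PD15, and 17.2, 17.0 and 15.0 on PD16. The days overlapped, with the highest values in replicate 3 of PD14 and of PD15. By limma, the log2 change from PD14 to PD16 was -0.23 with a 95% interval of -0.63 to 0.16 and an adjusted p of 0.466. In fits that each left out 1 library, this change ran from -0.395 to -0.0677, and 0 of 9 passed.

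Sohlh1 and Sohlh2 encode partners that act from the primordial follicle on. Sohlh1 lies at chr2:25842995-25847248 (ENSMUSG00000059625, minus strand, 8 exon blocks), and its FPKM were 17.1, 19.7 and 21.9 on PD14, 14.0, 16.7 and 17.5 on PD15, and 11.7, 15.7 and 15.7 on PD16. Each PD16 value was below each PD14 value, while PD15 overlapped with both. The log2 change from PD14 to PD16 was -0.43 with a 95% interval of -0.72 to -0.13 and a limma adjusted p of 0.0946, so it did not pass. With the replicate number as a block the same change had a limma adjusted p of 0.0338, although the numbers did not pair the libraries. Sohlh2 (ENSMUSG00000027794, chr3:55182028-55209957, plus strand, 11 exon blocks) had 1.23, 1.65 and 2.66 FPKM on PD14, 1.38, 1.44 and 1.75 on PD15, and 1.31, 1.94 and 1.13 on PD16. These values rested on 68 to 128 fragments per library, and the days overlapped throughout. From PD14 to PD16 the log2 change of Sohlh2 was -0.19 with a limma adjusted p of 0.580. Sohlh1 was the more abundant of the partners, with 16.7 FPKM over the 9 libraries against 1.61.

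Nobox, the homeobox gene that oocytes need for early follicle growth, lies at chr6:43303674-43309554 (ENSMUSG00000029736, minus strand, 10 exon blocks). Its FPKM were 55.1, 44.5 and 57.1 on PD14, 50.1, 49.1 and 55.0 on PD15, and 38.5, 41.5 and 42.5 on PD16. All 3 PD16 values were below every value of PD14 and PD15. The means were 52.2 ± 6.76 on PD14, 51.4 ± 3.16 on PD15 and 40.8 ± 2.05 on PD16 (SD, n = 3). The log2 change from PD14 to PD16 was -0.34 with a 95% interval of -0.55 to -0.13, and its limma adjusted p of 0.0752 missed the threshold of 0.05. Of 9 fits that each left out 1 library, 1 passed, at 0.0286 without PD14 replicate 2, and that p rose to 0.213 without PD14 replicate 3. Relative to the oocyte markers it was 0.141. The log2 change from PD15 to PD16 was -0.32 with an adjusted p of 0.159.

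Lhx8 encodes a LIM homeobox protein of the oocyte and lies at chr3:154306294-154330659 (ENSMUSG00000096225, minus strand, 10 exon blocks). It was the steadiest of the members on PD14, with 11.2, 11.1 and 11.5 FPKM. On PD15 it had 11.2, 12.9 and 11.1 FPKM, and on PD16 10.3, 9.20 and 10.6. The PD16 values were below those of the other days by a small margin. The log2 change was -0.16 from PD14 to PD16 and -0.20 from PD15 to PD16, with limma adjusted p of 0.227 and 0.231.

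Tbpl2 encodes a paralogue of the TATA-binding protein that growing oocytes use, and lies at chr2:24071721-24096595 (ENSMUSG00000061809, minus strand, 7 exon blocks). Its FPKM were 6.98, 4.89 and 6.87 on PD14, 6.21, 5.55 and 6.79 on PD15, and 4.32, 4.31 and 4.99 on PD16. The PD16 values lay below all PD15 values and overlapped with PD14 through PD14 replicate 2 alone. The log2 change from PD14 to PD16 was -0.38, with a limma adjusted p of 0.107. Of 9 fits that each left out 1 library, 1 passed, at 0.0348 without PD14 replicate 2, and the p rose to 0.278 without PD14 replicate 3. The log2 change from PD15 to PD16 was -0.37 with an adjusted p of 0.196.

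Pou5f1, also known as Oct4, is kept in oocytes and pluripotent cells and lies at chr17:35506018-35510772 (ENSMUSG00000024406, plus strand, 6 exon blocks). It had 13.1, 11.7 and 13.5 FPKM on PD14, 13.6, 15.5 and 14.3 on PD15, and 9.54, 11.2 and 10.4 on PD16. The values of the 3 days did not overlap, with PD15 the highest and PD16 the lowest. Means were 12.8 ± 0.922, 14.5 ± 0.938 and 10.4 ± 0.814 FPKM (SD, n = 3). From PD15 to PD16 Pou5f1 fell by 0.45 on the log2 scale, with a 95% interval of -0.62 to -0.28 and a limma adjusted p of 0.0434. From PD14 to PD16 the log2 change was -0.28 with an adjusted p of 0.0739. The call was near the threshold, since of 9 fits that each left out 1 library it held only without PD14 replicate 2, and the adjusted p ran from 0.0424 to 0.133, the last without PD16 replicate 1. Relative to the oocyte markers the change was -0.13, with an adjusted p of 0.240. An antisense gene, Gm19553, shares 14.1% of the exon bases of Pou5f1, and it was listed at 0 in all libraries.

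Sall4, a zinc finger factor of pluripotent and germ cells, lies at chr2:168748332-168767943 (ENSMUSG00000027547, minus strand, 7 exon blocks). It had 1.66, 1.38 and 1.53 FPKM on PD14, 1.34, 1.28 and 1.16 on PD15, and 0.971, 1.23 and 1.34 on PD16. All values of PD15 and PD16 were below those of PD14. The log2 changes from PD14 were -0.16 on PD15 and -0.21 on PD16, with limma adjusted p of 0.493 and 0.239. Sall4 rested on 128 to 225 fragments per library, and the opposite-strand gene Gm14261 at its locus reached at most 0.0925 FPKM.

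Taf4b, which encodes a subunit of TFIID enriched in gonads and needed for the ovarian reserve, lies at chr18:14783245-14900359 (ENSMUSG00000054321, plus strand, 15 exon blocks). Its FPKM were 4.90, 6.56 and 5.39 on PD14, 11.0, 8.90 and 9.59 on PD15, and 13.0, 9.14 and 12.2 on PD16. All libraries of PD15 and PD16 were above all libraries of PD14, whereas PD15 and PD16 overlapped. Means were 5.61 ± 0.854, 9.82 ± 1.06 and 11.5 ± 2.06 FPKM (SD, n = 3), from 565 to 1600 fragments per library. The log2 change from PD14 to PD16 was 0.91 with a 95% interval of 0.60 to 1.21 and a limma adjusted p of 0.0138, and Taf4b ranked 71 of 15495 genes by the height of this change. In mean FPKM it was already 1.75-fold higher on PD15 than on PD14. The log2 change to PD15, taken on FPKM + 1, was 0.71, but it had a limma adjusted p of 0.0583. Between PD15 and PD16 the log2 change was 0.19 with an adjusted p of 0.573. Leaving out 1 library at a time gave 0.102 to 0.337 for this change, and 0 of 9 fits passed.

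The PD16 call of Taf4b held in 7 of 9 fits that left out a library. It was lost without PD14 replicate 3, with an adjusted p of 0.0564, and without PD16 replicate 1, with 0.0544, and the log2 change stayed between 0.82 and 1.05. Relative to the 14 oocyte markers, the log2 change from PD14 to PD16 was 1.02, with an adjusted p of 0.00960. The PD15 change passed in 1 of those 9 fits, without PD16 replicate 2, with an adjusted p of 0.0457. In ovary RNA, the cell type in which Taf4b changed was not tested.

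**Figure D2:**
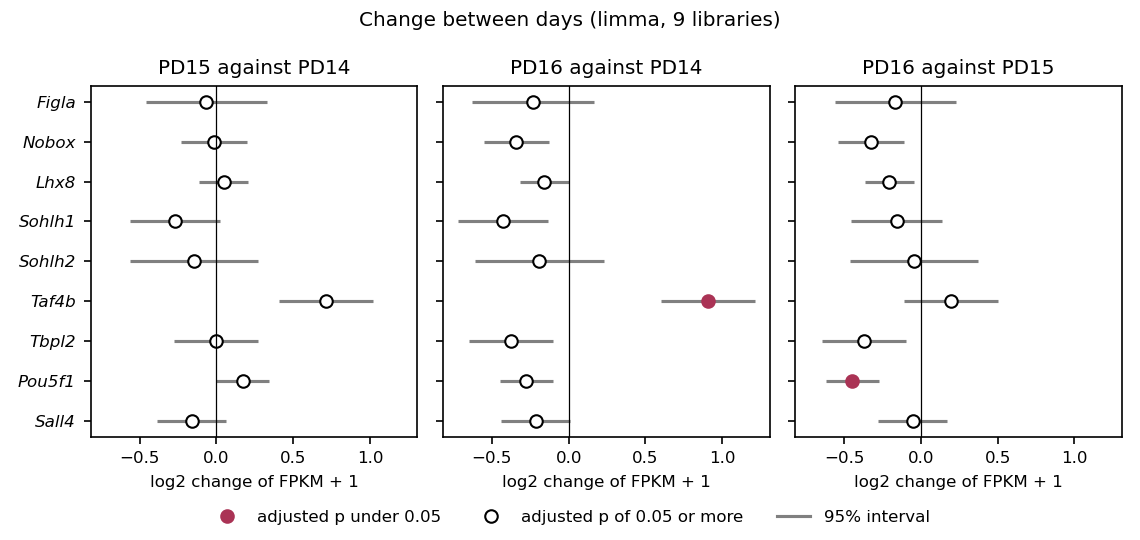
Change of each gene on the log2(FPKM + 1) scale (horizontal axes) in 3 comparisons between days, from limma over 9 libraries, with bars for the 95% interval and filled circles for an adjusted p under 0.05. Taf4b from PD14 to PD16, at 0.91, and Pou5f1 from PD15 to PD16, at -0.45, are the filled circles.

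From PD14 to PD15, 0 of the 9 members were called by limma, where 0.336% of all genes tested were called higher and 0.342% lower. Taf4b alone had an unadjusted p under 0.05, as did 14.7% of all genes. Libraries did not overlap for Taf4b and Pou5f1 in the higher direction, as for 10.4% of all genes, and for Sall4 in the lower direction, as for 10.2%. The median log2 change of the members was -0.02, against 0.01 for all genes tested.

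From PD14 to PD16, 1 member was called higher, where 2.36% of all genes were, and 0 were called lower, where 1.89% were. A log2 change below 0 was found for 8 of 9 members, against 47.8% of all genes and 9 of the 14 oocyte markers. At an unadjusted limma p under 0.05, 4 members were lower, namely Nobox, Sohlh1, Tbpl2 and Pou5f1, against 11.0% of all genes. Libraries did not overlap for 5 members in the lower direction, against 13.5% of all genes, and for Taf4b in the higher direction, against 15.0%. Of the 14 oocyte markers, 4 did not overlap in the lower direction and 1 in the higher. The members' median log2 change was -0.23, that of the oocyte markers -0.16 and that of all genes 0.01. Leaving out Taf4b, the means on PD16 were lower than on PD14 by 11.2% for Lhx8 to 27.3% for Tbpl2.

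From PD15 to PD16, 1 member was called lower, where 0.297% of all genes were, and 0 higher, where 0.432% were. Nobox, Lhx8, Tbpl2 and Pou5f1 were lower at an unadjusted limma p under 0.05, against 7.34% of all genes. Relative to the oocyte markers, Nobox and Lhx8 turned to above 0. Tbpl2 and Pou5f1 then had an unadjusted limma p of 0.411 and 0.188. The same 4 members did not overlap between the days, against 9.73% of all genes. All 14 oocyte markers were also lower on PD16 than on PD15. Of these, 9 had an unadjusted limma p under 0.05, and 10 did not overlap. The PD14 to PD16 and PD15 to PD16 comparisons share the PD16 libraries, and the PD15 and PD16 comparisons with PD14 share the PD14 libraries.

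Each member was also tested over all 3 days by an exact permutation test over 280 groupings, whose smallest possible p is 0.00357. Pou5f1 reached this smallest p. Taf4b had an exact p of 0.0107 and Lhx8 of 0.0321, and Nobox of 0.0536, Sall4 of 0.0643, Sohlh1 of 0.0679, Tbpl2 of 0.1, Figla of 0.582 and Sohlh2 of 0.689. These 9 p-values are unadjusted. An exact test of 3 libraries against 3 cannot go below 0.1. Relative to the oocyte markers, the exact p was 0.00357 for Taf4b, 0.0143 for Sall4, 0.0179 for Nobox, 0.0464 for Tbpl2, 0.0643 for Sohlh1, 0.146 for Pou5f1, 0.336 for Lhx8, 0.371 for Figla and 0.529 for Sohlh2. That scaling also moved the bulk of all genes between the days, so a low p there does not set a member apart.

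**Figure D3:**
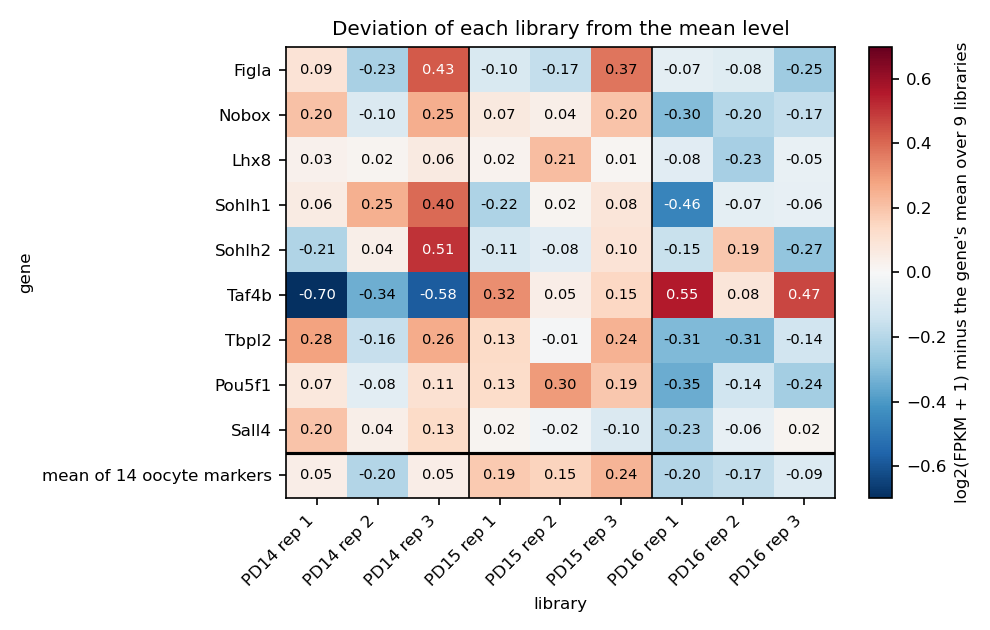
Deviation of each library (columns) from the mean over 9 libraries in log2(FPKM + 1), as colour and number, for the 9 genes and, in the bottom row, the mean of 14 oocyte markers. Taf4b runs from -0.70 to 0.55, against the direction of most other members, and the oocyte markers are highest on PD15.

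The libraries differed within a day as well. PD14 replicate 3 held the highest value of 4 members, and PD16 replicate 1 the lowest value of 4. Without Taf4b, the mean deviation of the other 8 members was 0.09, -0.03 and 0.27 in the PD14 libraries, -0.01, 0.04 and 0.14 on PD15, and -0.24, -0.11 and -0.14 on PD16. The oocyte markers deviated by 0.05, -0.20 and 0.05 on PD14, 0.19, 0.15 and 0.24 on PD15, and -0.20, -0.17 and -0.09 on PD16. So the markers were highest on PD15, while the PD15 means of the 8 members lay within the range of PD14.

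Because the level of the oocyte markers differed between the days, the members were also expressed relative to the 14 oocyte markers. Of these markers, 11 are also among the genes listed below as controlled by members, so the scale is not independent of the members. This scaling moved the median of all genes by -0.19 on PD15 and 0.10 on PD16 against PD14, and by 0.30 from PD15 to PD16. On PD15, 8 of 9 members were then lower relative to PD14, with log2 changes from -0.49 for Sohlh1 to -0.04 for Pou5f1, and 0.51 for Taf4b. On PD16, 8 of 9 members remained below PD14, from -0.32 for Sohlh1 to -0.05 for Lhx8. None of these 8 passed in either comparison, where the lowest limma adjusted p was 0.0521 for Sohlh1 on PD15, and Taf4b passed on PD16. Of all genes, this scaling called 0.269% higher and 6.36% lower on PD15, and 2.30% higher and 0.404% lower on PD16, each against PD14. From PD15 to PD16, 6 members changed sign under this scaling, and 2 of 9 were below 0. Taf4b then had a log2 change of 0.51 and an adjusted p of 0.0223, but 53.1% of all genes were called higher in that comparison and their median was 0.31, so the call does not set Taf4b apart. In the lower direction 0.661% of all genes were called, and 0 members by limma, with 0 at an unadjusted p under 0.05. Lhx8 and Pou5f1 changed sign from PD14 to PD15.

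**Figure D4:**
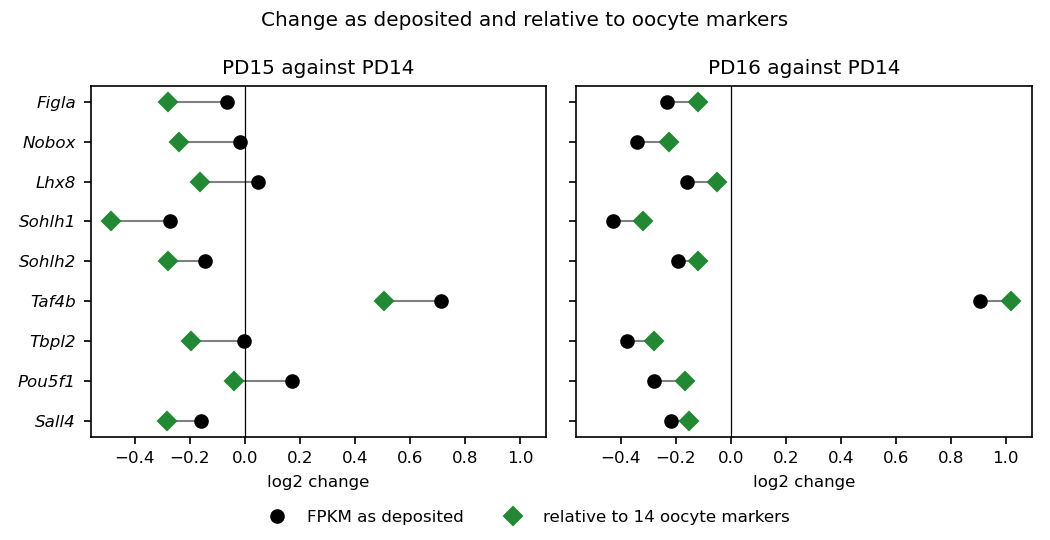
Log2 change from PD14 to PD15 and from PD14 to PD16 (horizontal axes) for FPKM as deposited (black circles) and relative to the 14 oocyte markers (green diamonds). On PD15 the relative values lie to the left of the deposited ones for all 9 genes, and on PD16 to the right, and Taf4b stays above 0 in both.

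Genes known to be controlled by FIGLA, NOBOX, LHX8 or the SOHLH factors include those of the zona pellucida. Of 17 such genes tested, 16 were higher on PD15 than on PD14, with a median log2 change of 0.21, against 0.01 for all genes. Of all genes 0.336% were called higher, and of the 17 genes 1 passed. This was Nlrp5, a maternal effect gene, which rose from 90.8 ± 16.3 to 153 ± 9.36 FPKM (limma adjusted p 0.0377). All 17 were lower on PD16 than on PD15, with a median of -0.37, against 0.01 for all genes. Of all genes 0.297% were called lower, and of the 17 genes 2 passed. Nlrp5 fell by 0.72 and Zp2, a zona pellucida gene, fell by 0.61 on the log2 scale, with limma adjusted p of 0.0439 and 0.0427. Relative to the oocyte markers, of which both are members, these changes were smaller, at -0.38 and -0.26, with adjusted p of 0.0175 and 0.0352, where 53.1% of all genes were called higher and 0.661% lower. Against PD14, 12 of the 17 were lower on PD16 with a median of -0.15, and 1 passed, Bmp15, an oocyte growth factor, which rose from 49.7 ± 3.03 to 65.4 ± 4.27 FPKM (limma adjusted p 0.0331). In that comparison 47.8% of all genes were below 0 and 2.36% were called higher. Of these 17 genes, 11 are also oocyte markers, so the lists are not independent. In the fits that each left out 1 library, the 4 calls held in 1 to 3 of 9, with adjusted p of 0.0209 to 0.138.

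**Figure D5:**
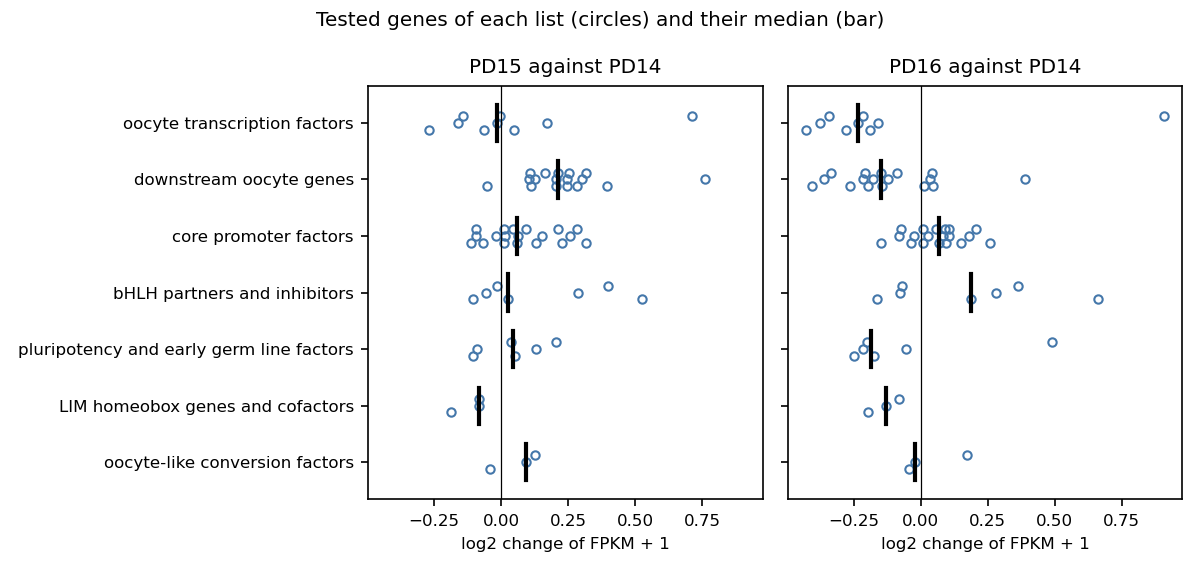
Log2 change of FPKM + 1 (horizontal axes) of each tested gene (circles) in 7 lists, with the median as a bar, from PD14 to PD15 and from PD14 to PD16. The median of the oocyte transcription factors is -0.02 and -0.23, that of the downstream oocyte genes 0.21 and -0.15, and Taf4b is the farthest circle on PD16.

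Partners and inhibitors of bHLH proteins were tested for 7 genes. From PD14 to PD16 1 passed, where 2.36% of all genes were called higher. Id3, an inhibitor that lacks a DNA-binding region, rose from 50.8 ± 4.31 to 81.1 ± 9.00 FPKM, a log2 change of 0.66 with a limma adjusted p of 0.0177, which held in 7 of 9 fits that left out a library and was lost without PD14 replicate 3, at 0.0696, and without PD16 replicate 1, at 0.0671. None passed from PD14 to PD15, where 3 had an unadjusted limma p under 0.05, against 14.7% of all genes. The general partner Tcf3 had 47.0 FPKM on PD14 and 42.0 on PD16, with an adjusted p of 0.214.

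Other core promoter factors were measured in 19 of 21 listed genes, and 0 passed in limma, with 2 at an unadjusted p under 0.05 from PD14 to PD16, against 22.8% of all genes. Their median log2 change was 0.07, with 14 higher and 5 lower. The farthest was Gtf2a1, a subunit of TFIIA, at 0.26 with an adjusted p of 0.0833. Taf4, the general counterpart of Taf4b, had a log2 change of 0.18 with an adjusted p of 0.174.

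Of the listed pluripotency and early germ line factors, 6 of 15 passed the filter. From PD14 to PD16, 5 of the 6 were lower, against 47.8% of all genes. In that comparison 2.36% of all genes were called higher, and 1 of the 6 passed. This was Klf4, a Krüppel-like factor also made by somatic cells, which rose from 2.53 ± 0.350 to 3.97 ± 0.707 FPKM with a limma adjusted p of 0.0472. That call held in 1 of 9 fits that left out a library, without PD16 replicate 2, and with median-ratio scaling its adjusted p was 0.0501. Nanog, Sox2 and Prdm14 reached at most 0.206, 0.119 and 0.0478 FPKM, far below Pou5f1. Among LIM homeobox genes and cofactors, 3 of 9 were tested and 0 passed in limma, with 1 at an unadjusted p under 0.05 from PD14 to PD16, against the same 22.8%. That was Ldb2, a LIM cofactor, at a log2 change of -0.20 with an adjusted p of 0.147. Stat3, Dynll1 and Sub1, which complete a set of factors known to turn stem cells into oocyte-like cells, gave 0 calls in limma and 0 unadjusted p under 0.05. Dynll1 had the farthest log2 change, 0.17 with an adjusted p of 0.413.

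The genes whose pattern over the 9 libraries was most like that of each member were found by Pearson's r of log2(FPKM + 1) over all genes tested. Nobox and Tbpl2 were close to each other, with r = 0.97, and both had Laptm4b and Map3k6 among their nearest 3. Nearest to Taf4b were Klhl31, Lrrc10b and Adgrf5, with r of 0.98 to 0.99. For Pou5f1 they were Galm, Akr1c18 and Rph3al, for Sall4 Shisa4, Xpc and Fzd2, and for Sohlh1 Rras, Dsg2 and Phf7. For Figla they were Sod1, Ube2e1 and Mrps36, for Sohlh2 Lsm4, Clptm1 and Rbmx2, and for Lhx8 an unnamed locus, Sept3 (listed under a date) and Bspry. The r of these other genes was 0.92 to 0.98. With 9 libraries of 3 days among 15495 genes, such values arise for many genes that share a day or a library, and they are a description.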

How the data were processed

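RNA-Seq of 9 ovary libraries, 3 each for PD14, PD15 and PD16, was used. The authors deposited FPKM for each library in a table, and these values were used as deposited. Per the submitters' processing notes, HISAT2 2.0.5 and mm10 were used. The counter and the annotation were not given in the sources used here, nor whether counting used strand. Exon lengths and coordinates were from GENCODE M21 (mm10), promoter windows from RefSeq (GRCm38.p6).

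Genes with a mean FPKM over 1 in 1 or more of the days were tested. The values log2(FPKM + 1) were fitted for all 9 libraries in limma 3.58.1 (R 4.3.3) with an intensity trend. A log2 change is thus on the log2(FPKM + 1) scale, which understates the change of low genes. Adjustment over the 15495 genes followed Benjamini and Hochberg, and an adjusted p under 0.05 counted as a call. Single members were compared by exact permutation tests, two-sided for pairs of days. The method was tested on simulated data with independent noise, where the changes put in were larger than the members' falls in the main fit. Its power for such falls was not measured. Depth was read from the step of a single fragment in the low FPKM, of which 95.3% to 96.0% were whole within 0.05 fragments. No count test was run.

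The members and lists were chosen with earlier results of these data known. Named genes were all members, the called genes of each list or, with 0 calls, the gene with the largest change from PD14 to PD16, and the 3 genes most correlated with each member. Also named were Dazl as the least abundant oocyte marker, the male germ line genes, and the opposite-strand genes at the Pou5f1 and Sall4 loci. Zp3 was named as a known target of FIGLA. Tcf3, Taf4, Nanog, Sox2 and Prdm14 were named after their values were seen. Alternatives were other pseudocounts, filters, scalings and limma settings, the libraries of the compared days alone, the replicate number as a block, and each library left out in turn. For the called genes of the lists, the scalings and left-out libraries were added after seeing the data. Python 3.11.15, pandas 2.3.3, NumPy 2.4.6 and Matplotlib 3.10.9 were used.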

Additional observations from a re-analysis of the deposited data

How the results depend on the processing

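Of 270 fits of a member's log2 change under other settings, 255 kept direction and side of the threshold. The 8 that changed direction all came from scaling to the oocyte markers: from PD15 to PD16 Figla 0.162, Nobox 0.0169, Lhx8 0.114, Sohlh1 0.169, Sohlh2 0.161 and Sall4 0.134, and from PD14 to PD15 Lhx8 -0.162 and Pou5f1 -0.0416. With a replicate block, 2 members (Sohlh1 and Taf4b) were called from PD14 to PD16 and 0 from PD15 to PD16. The replicate numbers did not pair the libraries, with a correlation of same-numbered libraries of -0.214 to 0.159. Over all genes, the block lowered the calls from 105 to 24 on PD15 and from 659 to 227 on PD16, each against PD14. From PD15 to PD16, 0 members were called without a filter, without the intensity trend, or with the libraries of these days alone, and with the oocyte markers as scale Pou5f1 was not called and Taf4b was, as were 53.1% of all genes in the higher direction. Of 36 exact tests of a member over the days under other settings, 4 newly passed 0.05 and 2 no longer did. The losses, of Lhx8 and Pou5f1, came from scaling to the oocyte markers, as did the gains of Nobox, Sall4 and Tbpl2. The cause was not tested.

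Leaving out each library in turn gave 0 to 1 called members from PD14 to PD15, 0 to 3 from PD14 to PD16 and 0 to 1 from PD15 to PD16. Changes that crossed 0 in these fits ran, from PD14 to PD15, from -0.234 to 0.0996 for Figla, -0.125 to 0.0509 for Nobox, -0.0183 to 0.0827 for Lhx8, -0.305 to 0.0536 for Sohlh2 and -0.146 to 0.0729 for Tbpl2. From PD14 to PD16 Sohlh2 ran from -0.352 to 0.00655. Between PD15 and PD16 Figla ran from -0.267 to 0.00146, Sohlh2 from -0.182 to 0.0501 and Sall4 from -0.108 to 0.0169. The fewest fragments were found for Sohlh2, Sall4 and Tbpl2, with 68 to 128, 128 to 225 and 135 to 269 per library.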
